A study of Mus musculus with 15 samples.

Results

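The Myc, Max and Mxd network is a set of transcription factors of the basic helix-loop-helix leucine zipper class, here represented by 8 genes: Myc, Mycl, Mycn, Max, Mxd1, Mxd3, Mxi1 and Mnt. Every array probe whose transcript identifier maps to one of these symbols was taken, which gave 9 probes of the 39429 on the array, with 2 for Mxd1 and 1 for each other gene. A filter on dim probes left 8 of the 9, for 7 genes, among the 28488 probes tested.

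RNA came from intestinal crypts that were isolated 24 h after a single treatment from mice 6 to 8 weeks old. In the N1N2 plus Lrp6 group the treatment was a pair of blocking antibodies, to Notch1 and to Notch2, plus anti-Lrp6 at 30 mg/kg; Lrp6 works with Frizzled receptors in receiving Wnt signals. The N1N2 group got only the Notch blocking antibodies, and the control group an IgG control antibody. For the Notch antibodies the labels state 1 mg/mL, which is a concentration rather than a dose per weight. Neither strain nor sex is stated in the sources used here. The submitters call the 5 arrays of each group biological replicates without saying how many animals went into each, so p-values measure the spread between these arrays. All values are log2 ratios of crypt RNA over a common mouse reference RNA on the same array. Such ratios can be compared between groups for 1 probe, but not between probes. Crypts are bulk samples, in which fewer cells of a type and less RNA per cell cannot be told apart.

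Myc proteins bind DNA only as dimers with Max, and the dimer sits on the E-box CACGTG and raises transcription of genes for ribosome building, metabolism and division. Mxd proteins and Mnt compete for Max and for the same sites, and bring in the Sin3 and histone deacetylase co-repressors. In the intestinal crypt Myc is a well-known target of Wnt signalling through TCF factors, and in several tissues a target of Notch through RBPJ, while Mxd1 is linked to cells that leave the cycle and differentiate.

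Promoter windows from RefSeq (GRCm38.p6), reaching from 250 bases before to 50 after a gene's start, matched 7 of the 8 genes with 9 windows; Myc had none. The E-box CACGTG, which reads the same on both strands, occurred in 7.15% of all 32851 windows and in those of Mnt and Max. TGGGAA, the RBPJ core, occurred on either strand in 25.6% of all windows and in those of Mxd3 and Mxi1. CTTTGA, a TCF core, occurred in 16% and among these genes only in the Mycn window, and the TCF core CTTTGT in 18.7% and in none of theirs. The stretches below show these sites in Max and Mnt, whose E-boxes are of the network's own kind, and in Mxd3 and Mycn, whose windows hold cores of the blocked pathways. Capitals mark the motif, in the gene's direction, so that TTCCCA is TGGGAA and TCAAAG is CTTTGA on the other strand.
Max (chr12:76962234-76962263, minus strand, 3 bases before the start): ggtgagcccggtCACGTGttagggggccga
Mnt (chr11:74830789-74830818, plus strand, 123 bases before the start): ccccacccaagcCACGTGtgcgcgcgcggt
Mxd3 (chr13:55329806-55329835, minus strand, 92 bases before the start): gggcggacggggTTCCCAtgggcggggcgg
Mycn (chr12:12941832-12941861, minus strand, 13 bases before the start): atcccccgagctTCAAAGcgcagccagtga
These are matches of letters in a window, and binding was not measured.

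Between 56.5% and 78.4% of spots per array were well above background in the crypt channel, with means of 63.8% ± 5.80 for N1N2 plus Lrp6, 72.6% ± 2.97 for N1N2 and 74.5% ± 4.12 for control (SD, n = 5 each). Markers of crypt epithelium had positive mean ratios on every array (5.67 to 6.48), and stromal and muscle markers averaged -3.61 ± 0.26 (N1N2 plus Lrp6), -3.18 ± 0.14 (N1N2) and -2.82 ± 0.33 (control; SD, n = 5 each). Slides numbered 6, and 1 slide held both N1N2 and control arrays (2 of each). No N1N2 plus Lrp6 array shared a slide with another group, so slide and the Lrp6 antibody cannot be told apart. Within the N1N2 plus Lrp6 group, replicates 1 and 2 lay outside the other 3 arrays on opposite sides for Myc and on the same side for Mxd1. Only replicate 2 did so for Mycn and Mnt, and only replicate 1 for Mycl and Max. How precise a value can be is set by these 5 arrays a group.

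**Figure D1:**
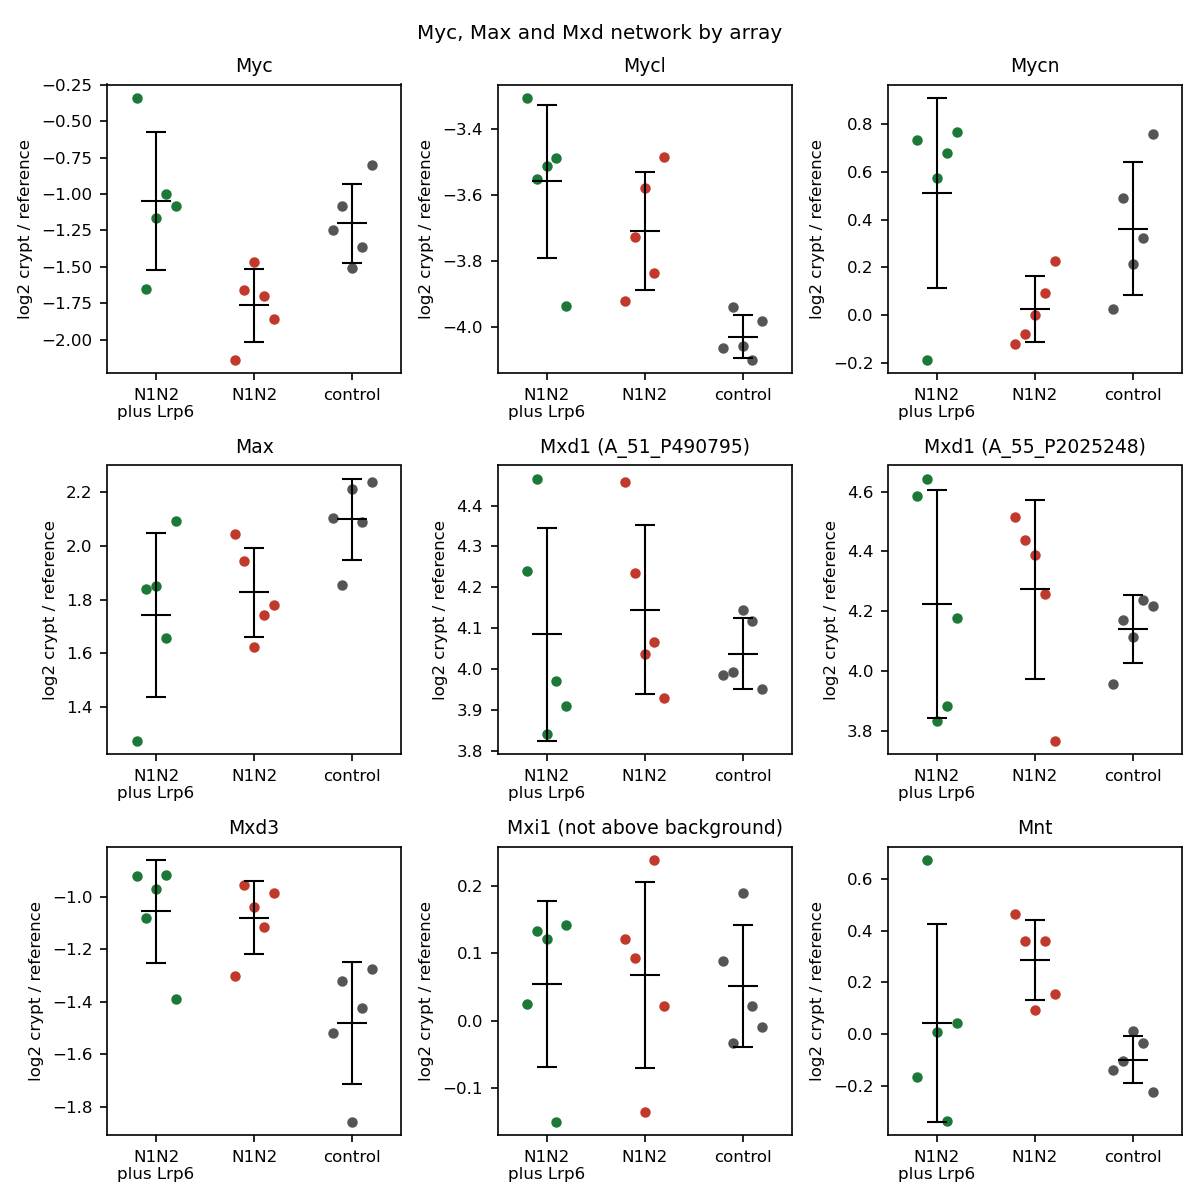
Log2 ratio of crypt over reference RNA for each of the 9 probes, 1 point per array, with the N1N2 plus Lrp6, N1N2 and control groups from left to right; bars show the mean and SD of 5 arrays, and each panel has its own vertical axis. Myc is lowest in the N1N2 group (-2.14 to -1.47), Mycl and Mnt do not overlap between N1N2 and control arrays, and Mxi1 was not above background.

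Myc, the activator first known as the cellular counterpart of a viral oncogene, was the only member called between the Notch antibodies with and without the Lrp6 antibody. Its log2 ratio was -0.34, -1.65, -1.16, -1.0 and -1.08 on the N1N2 plus Lrp6 arrays, -2.14, -1.66, -1.47, -1.70 and -1.86 on the N1N2 arrays, and -1.25, -1.08, -1.51, -1.37 and -0.80 on the control arrays. On 4 of the 5 N1N2 plus Lrp6 arrays Myc was above every N1N2 array, and replicate 2 lay within the N1N2 range. Ordered by mean, the N1N2 plus Lrp6 group came highest (-1.05 ± 0.47), then the control group (-1.20 ± 0.27) and the N1N2 group (-1.76 ± 0.25; SD, n = 5 each). The first pair in that order did not differ beyond its spread, and the second did not pass the test.

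Myc rose 1.64-fold in the N1N2 plus Lrp6 group over the N1N2 group (log2 change 0.72 ± 0.20 SE, 95% interval 0.30 to 1.14, limma adjusted p = 0.022). It was the only call among the 8 tested probes, where 16.5% of all probes were called in that comparison, 9.67% higher and 6.87% lower. None of the 8 was without overlap between these groups, against 9.97% of all probes. In the N1N2 group against control Myc was lower on 4 of 5 arrays than any control array, but the change of -0.56 ± 0.20 SE did not pass the test (limma adjusted p = 0.079). Between the N1N2 plus Lrp6 group and control the change was 0.15 ± 0.20 SE (limma adjusted p = 0.79), with a 95% interval from -0.27 to 0.57. The first and second of these comparisons share the N1N2 arrays, so that low Myc values there enter both.

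The Myc call between the antibody groups was lost without N1N2 replicate 1, the array with the lowest Myc (change 0.62, limma adjusted p = 0.0505), and in a fit with replicate number as a block (Myc change 0.72, limma adjusted p = 0.0507). It was kept without N1N2 plus Lrp6 replicate 1 (Myc change 0.54, limma adjusted p = 0.0441) and without replicates 1 and 2 together (Myc change 0.68, limma adjusted p = 0.0135). Within the slide that N1N2 and control shared, Myc differed by -0.81 between 2 and 2 arrays (limma adjusted p = 0.228 in a fit of those arrays), against -0.56 over all arrays.

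Mycn, a Myc paralogue best known from embryonic and neural tissue, was dim, well above background in the crypt channel on 14 of 15 arrays. Its log2 ratio was 0.73, -0.19, 0.58, 0.68 and 0.76 on the N1N2 plus Lrp6 arrays, -0.12, -0.08, 0.00, 0.09 and 0.23 on the N1N2 arrays, and 0.03, 0.49, 0.22, 0.32 and 0.76 on the control arrays. As for Myc, 4 of 5 N1N2 plus Lrp6 arrays were above every N1N2 array, and replicate 2 was the exception, below all of them. The change between these groups was 0.49 ± 0.17 SE and did not pass the test (limma adjusted p = 0.060). Without that replicate the Mycn change was 0.66 and passed (limma adjusted p = 0.00282), the only 1 of 15 fits without 1 array in which it did. In the N1N2 group against control the change was -0.34 ± 0.17 SE (limma adjusted p = 0.22).

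Mycl, the third activating paralogue, had ratios far below the reference on all arrays. They were -3.30, -3.55, -3.51, -3.49 and -3.94 on the N1N2 plus Lrp6 arrays, -3.92, -3.73, -3.58, -3.84 and -3.48 on the N1N2 arrays, and -4.06, -3.94, -4.06, -4.10 and -3.98 on the control arrays. Both antibody groups lay above all control arrays, although N1N2 plus Lrp6 replicate 5, alone on its slide, cleared the highest control array only beyond the decimals printed. Neither change passed the test, at 0.47 ± 0.11 SE for N1N2 plus Lrp6 against control (limma adjusted p = 0.076) and 0.32 ± 0.11 SE for N1N2 against control (limma adjusted p = 0.067). Between the 2 antibody groups Mycl differed by 0.15, with a 95% interval from -0.08 to 0.38.

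Max, the obligate partner of all the others, had its highest mean ratio in control crypts. Its ratio ran from 1.27 to 2.09 in the N1N2 plus Lrp6 group, from 1.63 to 2.04 in the N1N2 group and from 1.85 to 2.24 in the control group, and the groups overlapped. Its changes were -0.36 ± 0.13 SE for N1N2 plus Lrp6 against control (limma adjusted p = 0.28) and -0.27 ± 0.13 SE for N1N2 against control (limma adjusted p = 0.20). Neither passed the test.

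**Figure D2:**
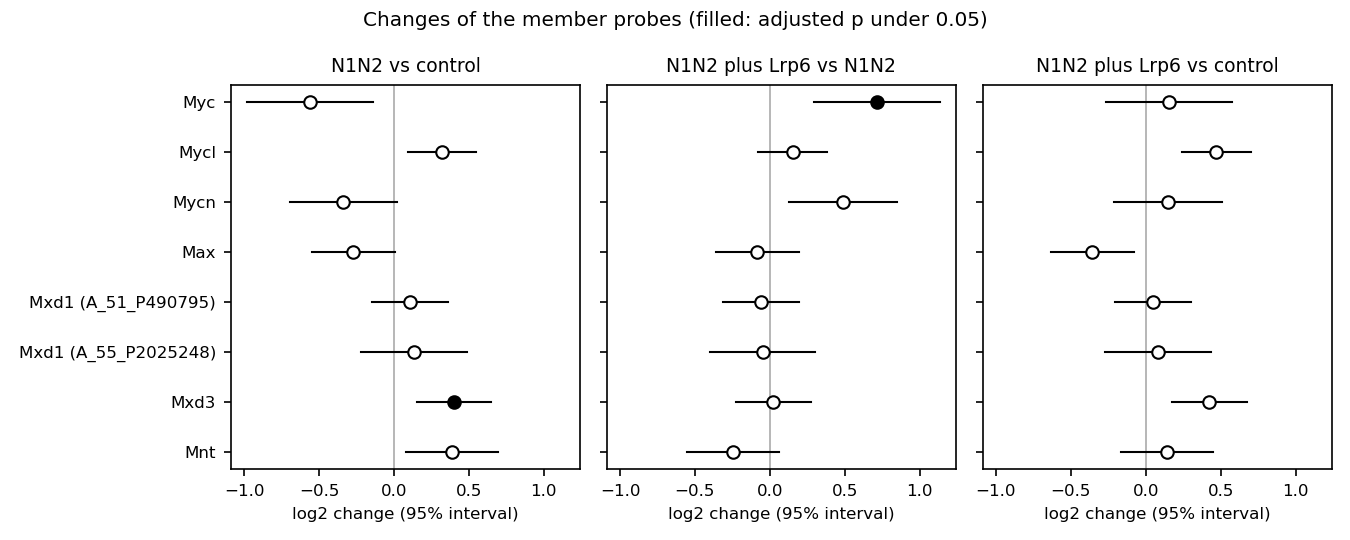
Log2 change (points) with 95% interval (lines) of the 8 tested probes in the comparisons N1N2 against control, N1N2 plus Lrp6 against N1N2 and N1N2 plus Lrp6 against control; filled points passed an adjusted p of 0.05 over all probes. Only Mxd3 in the first panel (0.40) and Myc in the second (0.72) are filled.

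Mxd3, a member of the repressive Mxd branch that, unlike Mxd1, is known from dividing cells, was the one member called between the N1N2 and control groups. Its ratio was -0.92, -1.08, -0.97, -0.92 and -1.39 on the N1N2 plus Lrp6 arrays, -1.30, -0.95, -1.04, -1.12 and -0.98 on the N1N2 arrays, and -1.52, -1.32, -1.86, -1.42 and -1.28 on the control arrays. In each antibody group 4 of 5 arrays lay above every control array. Mxd3 rose 1.32-fold in the N1N2 group over control (log2 change 0.40 ± 0.12 SE, limma adjusted p = 0.039), the only call among the 8 tested probes, where 11.4% of all probes were called, 6.2% higher and 5.23% lower. The change of 0.42 ± 0.12 SE for N1N2 plus Lrp6 against control was as large and did not pass the test (limma adjusted p = 0.15), in a comparison in which 0.358% of all probes were called. Between the antibody groups Mxd3 differed by 0.02, with a 95% interval from -0.23 to 0.27.

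The Mxd3 call was lost in 8 of the 15 fits without 1 array, namely without any of control replicates 1 to 4 or N1N2 replicates 2 to 5 (highest limma adjusted p = 0.0859). It was also lost with replicate number as a block (Mxd3 change 0.40, limma adjusted p = 0.0745). Within the shared slide Mxd3 differed by 0.22 between 2 N1N2 and 2 control arrays (limma adjusted p = 0.584), against 0.40 over all arrays.

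Mnt, the most widely expressed Max-binding repressor and an antagonist of Myc, was higher on every N1N2 array than on any control array. Its ratio was -0.17, 0.68, 0.01, -0.34 and 0.04 on the N1N2 plus Lrp6 arrays, 0.46, 0.36, 0.09, 0.36 and 0.16 on the N1N2 arrays, and -0.14, -0.11, 0.01, -0.04 and -0.22 on the control arrays. The change of 0.39 ± 0.14 SE for N1N2 against control did not pass the test (limma adjusted p = 0.097). With the Lrp6 antibody added, 4 of 5 arrays were below all N1N2 arrays while replicate 2 was above them all, and the change was -0.24 ± 0.14 SE (limma adjusted p = 0.29). Without replicate 2 the Mnt change was -0.40 and passed (limma adjusted p = 0.0107). In that fit, in which all groups share the estimate of spread, Mnt also passed between N1N2 and control (0.39, limma adjusted p = 0.0127). In either comparison that fit was the only 1 of 15 without 1 array in which Mnt passed. Mnt and Mycl were the 2 of 8 tested probes whose N1N2 and control values did not overlap, against 12.1% of all probes. For N1N2 plus Lrp6 and control Mycl was the 1 of 8 without overlap, against 2.6% of all probes.

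Both probes for Mxd1, a repressor induced as cells differentiate, were bright and showed no call. On one probe (A_51_P490795) Mxd1 ran from 3.84 to 4.47 in the N1N2 plus Lrp6 group, from 3.93 to 4.46 in the N1N2 group and from 3.95 to 4.14 in the control group. On the other (A_55_P2025248) Mxd1 ran from 3.83 to 4.64, from 3.77 to 4.51 and from 3.96 to 4.24 in the same groups. The 2 probes had the same sign in each comparison, with changes of 0.11 and 0.13 for N1N2 against control and 95% intervals from -0.15 to 0.36 and from -0.22 to 0.49. Both were highest in the N1N2 plus Lrp6 group on replicates 1 and 2, apart from the other 3 arrays.

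Mxi1, also called Mxd2, could not be measured: its single probe was not well above background in either channel on any of the 15 arrays. Its ratios, from -0.15 to 0.24, carry no order and no fold is given.

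In all, the 8 tested probes had a median change of 0.12 for N1N2 against control, -0.01 for N1N2 plus Lrp6 against N1N2 and 0.15 for N1N2 plus Lrp6 against control, where all probes had medians of -0.01, 0.00 and 0.01. In the last comparison limma called none of them at an adjusted p under 0.05, and 3 (Mycl, Mxd3 and Max) had an unadjusted p under 0.05. The share of all probes or named genes at that unadjusted threshold is not given. This count and later counts at it therefore have no background to be judged against.

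Around the members, 28 genes widely described as induced by Myc were read by the brightest probe of each gene. Between the N1N2 plus Lrp6 and N1N2 groups 17 of the 28 rose and none fell, with a median change of 0.36, whereas 9.12% of all named genes rose and 7.36% fell, with a median of -0.01. The count was 10 without N1N2 replicate 2, 10 without N1N2 replicate 4, 9 with plain background subtraction and 11 with flagged spots kept, and 1 gene was called lower with slide as a random block and without N1N2 plus Lrp6 replicate 5. The largest changes were those of Apex1, a DNA repair endonuclease (1.21 ± 0.16 SE), the nucleolar methyltransferase Fbl (0.98 ± 0.15), nucleolin, Ncl (0.76 ± 0.23), and nucleophosmin, Npm1 (0.73 ± 0.18), with limma adjusted p-values of 0.00055, 0.00089, 0.035 and 0.011. The Ncl call was lost without N1N2 replicate 1 (limma adjusted p = 0.0706), without N1N2 plus Lrp6 replicate 1 (0.52, limma adjusted p = 0.0589), without N1N2 plus Lrp6 replicates 1 and 2 (0.50, limma adjusted p = 0.103) and with arrays scaled to each other (0.55, limma adjusted p = 0.108). The 3 further Npm1 probes gave 0.83 to 1.01 and were also called. For Nop56 and Wdr43 the brightest probe was not called (0.04 and 0.19) while the other probe was (0.43 and 0.44), and for the transferrin receptor Tfrc it was called (0.65) while the other 2 probes were not (0.15 and 0.13). Of the early-described Myc targets, Odc1, which makes polyamines, rose by 0.29 (limma adjusted p = 0.021; 0.23 and 0.0612 without N1N2 plus Lrp6 replicates 1 and 2), while Cad, which starts pyrimidine synthesis, stood at -0.02 (limma adjusted p = 0.92).

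In the N1N2 group against control 5 of the 28 fell and none rose, with a median of -0.19, where 6.02% of all named genes fell and 7.02% rose, with a median near 0. They were Apex1 (-0.79 ± 0.16 SE), Ncl (-0.78 ± 0.23), Fbl (-0.65 ± 0.15), the mitochondrial chaperonin Hspd1 (-0.57 ± 0.09) and the cap-binding factor Eif4e (-0.44 ± 0.12), with limma adjusted p-values from 0.00076 to 0.04. In this comparison Ncl did not pass without N1N2 replicate 1 (limma adjusted p = 0.0798), and between the antibody groups Eif4e (0.38) did not pass without N1N2 plus Lrp6 replicate 1 (0.28, limma adjusted p = 0.0693). With slide as a block 1 of the 28 was called, Hspd1 at -0.77 (limma adjusted p = 0.0327), and the list's median was -0.31. All 5 are among the 17, and the N1N2 arrays enter both counts. Between N1N2 plus Lrp6 and control limma called none of the 28 (8 at an unadjusted p under 0.05), while 0.28% of named genes rose and 0.224% fell, and the median was 0.16. Eif4e, Odc1, Cad, Nop56, Wdr43 and Tfrc were named after their values were seen, as were Ascl2, Slc14a1 and Lgr5.

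Markers of some other states also differed between the groups. Their counts stand against the same shares of all named genes. These were 9.12% higher and 7.36% lower between N1N2 plus Lrp6 and N1N2, and 7.02% higher and 6.02% lower between N1N2 and control. On the cell cycle list 16 of 19 genes rose and no member fell in the first of these comparisons (median 0.79), and 14 fell and none rose in the second (median -0.56). In the second, 7 of the cell cycle genes were called with median centring and 0 with slide as a block. Goblet cell markers had 3 of 8 lower in the first comparison and 4 of 8 higher in the second. The goblet cell mean ran from 6.20 to 6.97 on N1N2 plus Lrp6 arrays, from 6.79 to 7.31 on N1N2 arrays and from 6.05 to 6.35 on control arrays. Enteroendocrine markers had 1 of 10 lower in the first, near the 7.36% of all named genes, and 3 of 10 higher in the second. Their means were 3.62 to 3.97 on N1N2 plus Lrp6 arrays, 3.85 to 4.33 on N1N2 arrays and 3.17 to 3.50 on control arrays. For 8 enterocyte and 4 Paneth cell markers limma called none in any comparison. Enterocyte medians were -0.26 in the first and 0.21 in the second, and Paneth cell medians -0.44 and 0.22.

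Of 4 stem cell markers, the transcription factor Ascl2 and the urea transporter Slc14a1 rose between N1N2 plus Lrp6 and N1N2 and fell between N1N2 and control. Lgr5, the R-spondin receptor, had the other sign in the first of these, at -0.66 (limma adjusted p = 0.078), and it fell by 1.21 in N1N2 plus Lrp6 against control crypts (limma adjusted p = 0.045). Of 12 genes marking stroma and muscle, 5 fell between N1N2 plus Lrp6 and N1N2, and 2 of the 12 between N1N2 and control. Between N1N2 plus Lrp6 and control 2 of the 12 fell, with a median change of -0.72, where 0.224% of all named genes fell. Immune markers averaged 2.01 ± 0.13 in N1N2 plus Lrp6, 2.01 ± 0.24 in N1N2 and 2.32 ± 0.16 in control crypts (SD, n = 5 each), with 2 of 11 lower in N1N2 against control. The part of these markers in the Myc values was not tested.

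**Figure D3:**
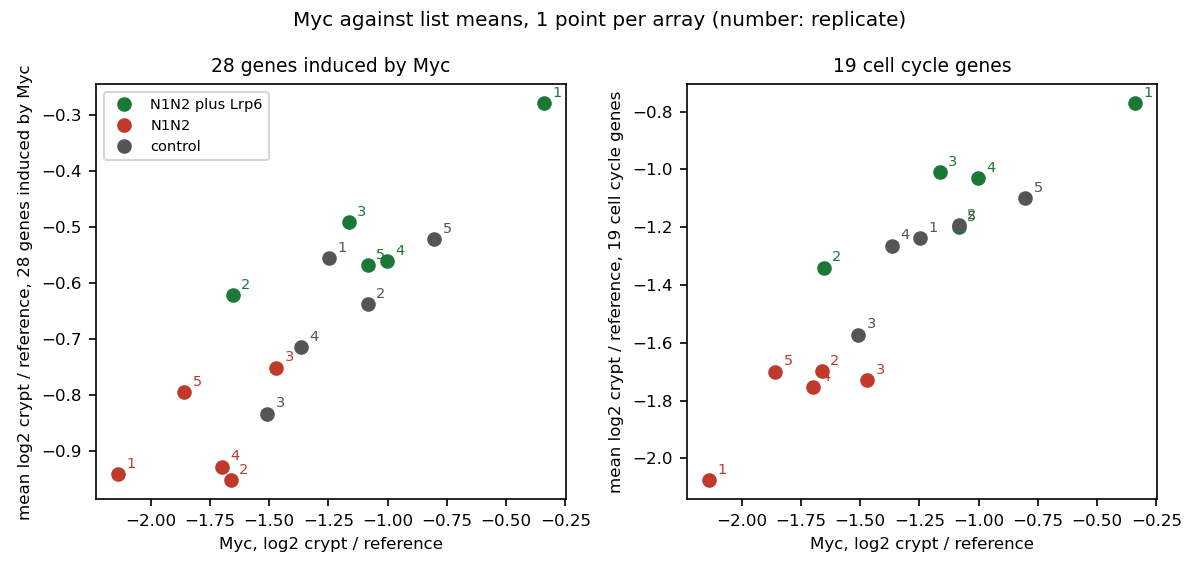
Myc (horizontal) against the mean of the 28 genes induced by Myc (left) and of the 19 cell cycle genes (right), all as log2 ratio of crypt over reference, 1 point per array with its replicate number. N1N2 plus Lrp6 replicate 1 has the highest values of Myc (-0.34) and of both means (-0.28 and -0.77), and N1N2 replicate 1 the lowest Myc (-2.14) and cell cycle mean (-2.08).

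The mean of the 28 genes ran from -0.62 to -0.28 on N1N2 plus Lrp6 arrays, from -0.95 to -0.75 on N1N2 arrays and from -0.83 to -0.52 on control arrays. N1N2 plus Lrp6 replicate 2, which had a Myc value within the N1N2 range, had the lowest mean of its group (-0.62), still above every N1N2 array. The array with the highest Myc value, replicate 1 of the same group, also had the highest mean of the 28. That array had the smallest share of spots well above background of all 15 (56.5%). Its crypt epithelium mean (5.67) and Paneth cell mean (5.31) were also the lowest of all 15. In the promoter windows 10 of the 22 matched genes of the list held CACGTG, in 40.7% of their 27 windows. Among the 13 matched genes that rose between the antibody groups 6 held it, and among the 9 that did not pass 4 did. For the 3 genes with such a site that were called in both comparisons, the upstream E-box nearest to the start is shown, in capitals as before.
Apex1 (chr14:50924913-50924942, plus strand, 24 bases before the start): gcgctccagaacCACGTGggggcggagccc
Hspd1 (chr1:55088306-55088335, minus strand, 80 bases before the start): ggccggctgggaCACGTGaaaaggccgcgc
Eif4e (chr3:138527192-138527221, plus strand, 64 bases before the start): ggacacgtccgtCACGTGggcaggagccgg
The Apex1 window holds CACGTG also at and after the start, where the last copy overlaps a TGGGAA.

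**Figure D4:**
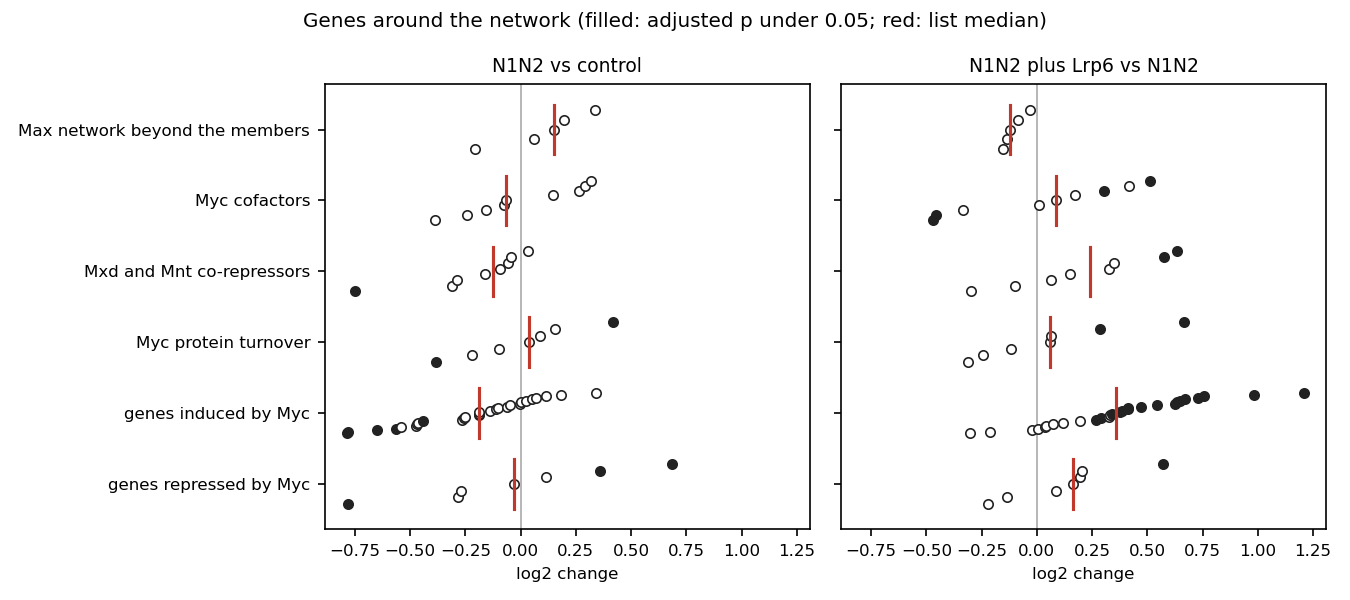
Log2 change of each gene (points) in 6 lists around the network for N1N2 against control (left) and N1N2 plus Lrp6 against N1N2 (right); filled points passed an adjusted p of 0.05, and red lines are list medians. Of the genes induced by Myc 5 are filled on the left, all below 0, and 17 on the right, all above 0.

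Some of the co-repressors and cofactors were called. Between the antibody groups 2 of 8 co-repressors rose, where 9.12% of all named genes rose. In N1N2 against control 1 of the 8 fell, where 6.02% of all named genes fell. Of 8 co-repressor subunits that Mxd proteins and Mnt recruit, Rbbp7, a histone-binding subunit, rose by 0.63 ± 0.18 SE and Sap30, a Sin3-associated subunit, by 0.58 ± 0.13 in N1N2 plus Lrp6 over N1N2 crypts (limma adjusted p = 0.025 and 0.0069). That Rbbp7 call was lost without N1N2 replicate 1 (0.55, limma adjusted p = 0.0572). Rbbp7 fell by 0.75 ± 0.18 SE in N1N2 crypts against control (limma adjusted p = 0.015) and by 0.91 within the shared slide, where it did not pass. The scaffolds Sin3a and Sin3b differed by 0.15 and 0.06 between the antibody groups and did not pass (limma adjusted p = 0.39 and 0.70).

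Of 9 Myc cofactors tested, 2 rose and 2 fell between the antibody groups, where 9.12% of named genes rose and 7.36% fell. Between N1N2 and control limma called none (5 at an unadjusted p under 0.05), where 7.02% rose and 6.02% fell. The paired helicases Ruvbl1 and Ruvbl2 rose by 0.51 ± 0.09 SE and 0.30 ± 0.08, while Trrap, the scaffold of Myc-bound acetyltransferases, and the remodeller Ep400 fell by 0.47 ± 0.12 and 0.46 ± 0.10 (limma adjusted p from 0.0026 to 0.016). With median centring in place of loess Trrap and Ep400 stood at -0.25 and -0.27 and did not pass, and without N1N2 plus Lrp6 replicates 1 and 2 Trrap stood at -0.44 (limma adjusted p = 0.0548). Of 7 genes of Myc protein turnover, the kinase Aurka, known to shield Mycn protein from degradation and itself a mitotic gene, rose by 0.66 ± 0.10 SE in N1N2 plus Lrp6 over N1N2 crypts (limma adjusted p = 0.00092).

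In the N1N2 group against control, Aurka fell by 0.38 ± 0.10 SE and Fbxw7, the ubiquitin ligase subunit that marks Myc for degradation, rose by 0.42 ± 0.11 (limma adjusted p = 0.024 and 0.023). Within the shared slide these were -0.56 and 0.57 and did not pass, nor did they with median centring (-0.59 and 0.28), and Aurka was at -0.20 with arrays scaled to each other (limma adjusted p = 0.0993).

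Of 7 genes described as repressed by Myc, the stress gene Gadd45a rose by 0.36 ± 0.08 SE, the differentiation gene Ndrg1 rose by 0.69 ± 0.19 and the growth arrest gene Gas1 fell by 0.78 ± 0.21 in N1N2 against control crypts (limma adjusted p from 0.0082 to 0.029). With median centring Gadd45a and Ndrg1 stood at 0.16 and 0.37 and did not pass, Gas1 stood at -0.41 with arrays scaled to each other (limma adjusted p = 0.37), and within the shared slide none of the 3 passed. Between the antibody groups Ndrg2 rose by 0.57 ± 0.15 SE (limma adjusted p = 0.016), but it stood at 0.35 and did not pass without N1N2 plus Lrp6 replicates 1 and 2 (limma adjusted p = 0.107). Cdkn1a, the cell cycle inhibitor that Myc represses through Zbtb17, differed by 0.09 and 0.12 in the comparisons N1N2 plus Lrp6 against N1N2 and N1N2 against control and passed in neither (limma adjusted p = 0.84 and 0.76). None of the 5 further factors of the extended Max network, Mxd4, Mga, Mlx, Mlxip and Mlxipl, was called by limma in any comparison, and 1, Mxd4 between N1N2 and control, had an unadjusted p under 0.05. Mxd4, a repressor like Mxd1, stood at 0.34 ± 0.12 SE there (limma adjusted p = 0.085).

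The probes whose log2 ratios over the 15 arrays were most like those of Myc were Cdca4 (r = 0.974), Rrs1, a ribosome assembly factor that is also among the 28 genes (r = 0.973), and Ipo11, a nuclear import receptor (r = 0.970). For Mxd3 they were Mpg, a DNA repair glycosylase (r = 0.940), an unnamed probe, A_52_P420608 (r = 0.901), and Zfp59, a zinc finger gene (r = 0.895). These coefficients describe 15 arrays in 3 groups that share the reference RNA. Since these probes were picked for likeness to Myc and Mxd3 on the same arrays, their differences between the groups follow from that choice and are not given as results.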

How the data were processed

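Per the labels' protocols, crypts were released with a chelating buffer and strained, and crypt RNA in Cy5 shared each Agilent array with reference RNA in Cy3, always in that orientation. Per the file headers, Feature Extraction 11.0.1.1 read the arrays. The deposited scanner files give median intensity and local background per spot and channel; no mean intensities were in the files, so medians were used. The authors also deposited a log2 table (R 3.0.0 and limma 3.6.7, per the submitters' processing notes) that correlated with the values used here at r of at least 0.99998 on each array. Column medians of that table lay between 0.0144 and 0.0286.

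In R 4.3.3 with limma 3.58.1, flagged spots (306 to 642 of 44397 per array) were left out, then normexp (offset 50) and loess within arrays were applied, and spots of a probe were averaged. A probe was kept where the crypt channel was well above background on 4 or more of the 5 arrays of some group. One lmFit and eBayes fit covered 15 arrays, two-sided, with Benjamini-Hochberg adjustment over all 28488 probes and a threshold of 0.05. The fit was tested on simulated data with independent noise per probe and array. That simulation had no slide effect, so it does not cover slides that lie inside a group. Genes were named through a RefSeq table (GRCm38.p6), which matched 26581 probes. Named genes were all members, up to 4 called genes per list and comparison with the largest change, lists of up to 10 genes, and the 3 nearest patterns of each called member. Members and lists were chosen with earlier results of these data known. Skp2 had no matched probe and Zbtb17 did not pass the filter. Alternatives covered background, normalization, filter, slide, weights, fit and single arrays.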

Additional observations from a re-analysis of the deposited data

Results flagged for a closer look

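In 72 sets of 5 arrays (members and list means, each within a group), the gap between the most extreme array and its neighbour was set against the whole range; 3 passed Dixon's critical value of 0.71, and chance alone passes about 1 in 20. Mycn in the N1N2 plus Lrp6 group gave 0.801, since replicate 2 (-0.19) lay far below the other 4 arrays. The mean of cell cycle genes in the N1N2 group gave 0.853, from replicate 1 (-2.08), the array that also had the lowest Myc. The mean of stromal and muscle genes in the N1N2 plus Lrp6 group gave 0.755, from replicate 1 (-4.07), the array with the highest Myc.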

How the results depend on the processing

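The Myc change between N1N2 plus Lrp6 and N1N2 kept its sign in all 31 alternatives (0.54 to 0.87) and passed in 29 of them. The Mxd3 change between N1N2 and control kept its sign in all 32 (0.17 to 0.52) and passed in 19. Several alternatives could not move these estimates, so their sign was fixed by construction. These were the filters, 1 probe per gene, Aquantile, the replicate block, a fit of the compared groups alone and fits without an array of the third group. For N1N2 against control, the fixed slide block and the shared slide also gave 1 and the same estimate. Of the 8 tested probes, 1, 1 and 0 were called in the comparisons N1N2 against control, N1N2 plus Lrp6 against N1N2, and N1N2 plus Lrp6 against control. For N1N2 against control the count was 0 with flagged spots kept, with median centring, with slide as a fixed block and within the shared slide, 3 with arrays scaled to each other, 3 with slide as a random block, 5 with array weights and 4 in a fit of those groups alone. With the Lrp6 antibody added to N1N2 it was 2 with no background correction, 2 with slide as a random block, 3 with array weights, and 3 without N1N2 plus Lrp6 replicates 1 and 2, an alternative chosen after seeing the data. Between N1N2 plus Lrp6 and control it was 3 with slide as a random block and 1 with array weights. Without single arrays the counts ran from 0 to 3, from 0 to 3 and from 0 to 2. For Mxd3 between N1N2 and control the change was 0.17 with flagged spots kept (limma adjusted p = 0.351) and 0.27 with median centring (limma adjusted p = 0.32).

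Counts of genes induced by Myc, whose alternatives were all chosen after seeing the data, were 5, 17 and 0 in the same comparisons. For N1N2 against control they were 3 with plain background subtraction, 8 with probes above background on all 15 arrays, 1 with slide as a fixed block, 0 within the shared slide, 9 with slide as a random block, 15 with array weights and 9 in a fit of those groups alone. With the Lrp6 antibody added to N1N2 they were 9 with plain subtraction and 11 with flagged spots kept, and for N1N2 plus Lrp6 against control 7 with slide as a random block. Without single arrays they ran from 3 to 9, from 10 to 17 and from 0 to 1.

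Some small changes turned sign. Between the antibody groups Mxd3 was -0.025 with plain subtraction, -0.027 with flagged spots kept, -0.0011 with an offset of 16, -0.085 with scaling and -0.013 without N1N2 plus Lrp6 replicates 1 and 2. Max was 0.14 with median centring, 0.088 with scaling and 0.039 without those replicates, and Mycl -0.22 with scaling. The Mxd1 probes A_51_P490795 and A_55_P2025248 were 0.016 and 0.029 with flagged spots kept, 0.14 and 0.15 with median centring and 0.37 and 0.40 with scaling. Between N1N2 and control Mxd1 was -0.090 and -0.064 with median centring and -0.32 and -0.31 with scaling. Between N1N2 plus Lrp6 and control Mxd1 was -0.034 and -0.13 with array weights and -0.13 and -0.18 without those replicates. Without single arrays Mxd3 ran from -0.032 to 0.11, Max from -0.17 to 0.032 and Mxd1 from -0.16 to 0.018 and from -0.18 to 0.049 between the antibody groups. In the comparison of N1N2 plus Lrp6 with control Myc ran from -0.024 to 0.31, Mnt from -0.015 to 0.24 and Mxd1 from -0.048 to 0.11 and from -0.020 to 0.18. The cause was not tested.

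Over all probes 3257, 4713 and 102 were called, with 54.3%, 58.5% and 54.9% of them higher. For N1N2 against control there were 1457 with median centring, 117 with slide as a fixed block (73.5% higher), 3 within the shared slide, 7547 with array weights and 4970 in a fit of those groups alone, and 67.6% were higher with flagged spots kept. Between the antibody groups there were 2709 with flagged spots kept and 8327 with slide as a random block, and 77.2% were higher with median centring. Between N1N2 plus Lrp6 and control there were 54 with flagged spots kept (83.3% higher), 34 with median centring, 61 with scaling (67.2% higher), 154 with an offset of 16 (43.5% higher), 3270 with slide as a random block, 32 with the replicate block, 485 with array weights, 54 in a fit of those groups alone (70.4% higher) and 18 without N1N2 plus Lrp6 replicates 1 and 2 (66.7% higher), and 43.8% were higher with plain subtraction. Without single arrays the counts ran from 1747 to 4655, from 2937 to 5624 and from 27 to 422. Slide as a random block took a within-slide correlation of -0.18. As most slides lie inside a group, a negative correlation narrows standard errors, so counts from that fit are not a like comparison.

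Replicate numbers were not taken as pairs in the main fit. Deviations of same-numbered arrays correlated at -0.01 to 0.62 for N1N2 and control, where 4 of 5 pairs were over 0.1 and 2 of 5 correlated best with their own number. They correlated at -0.43 to 0.08 for N1N2 plus Lrp6 and N1N2, and at -0.26 to -0.00 for N1N2 plus Lrp6 and control, with 0 of 5 in both. For N1N2 and control these values do not settle whether the numbers pair the arrays. With the replicate block the calls among the 8 probes were 0, 0 and 0, with Mxd3 at 0.40 (limma adjusted p = 0.0745) and Myc at 0.72 (limma adjusted p = 0.0507). Aquantile left all log ratios as they were, by construction. Dim spots limit Mycn and leave Mxi1 unmeasured.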
